A study of Mus musculus with 12 samples.

Results

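Voltage-gated sodium channels are the membrane proteins that open on depolarisation and let in the sodium current of the action potential. Each channel is built on a large pore-forming alpha subunit, and smaller beta subunits join it, change how it gates and anchor it at the cell surface. In motor neurons these channels are packed at the axon initial segment, where the action potential starts, and at the nodes of Ranvier, where it is renewed. Their transcripts are followed here for the 8 subunits Scn1a, Scn2a1, Scn3a, Scn8a and Scn9a (alpha) and Scn2b, Scn3b and Scn4b (beta), chosen by symbol from the 25965 entries of the count table. Scn2a1 is the symbol the table uses for Scn2a.

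The RNA came from lumbar lower motor neurons cut out by laser from C57BL/6 mice aged 5 months. The gene for TDP-43, an RNA-binding protein, had been altered by knock-in to carry Q331K, a change known from amyotrophic lateral sclerosis (ALS). Wild type mice (+/+), heterozygotes (Q331K/+) and homozygotes (Q331K/Q331K) gave 4 libraries each, and no group had a further treatment or transgene in its labels. Nothing in the labels ties a library to its own animal, so p-values measure the spread between libraries, which may be technical. All values are in CPM, the counts of a gene scaled to a common library total, and library totals ran from 60886825 to 83504446 raw counts, and all 8 subunits passed the filter on low counts, as did 16338 entries of 25965.

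Motor neuron markers were present in every library: 9 of 10 listed markers were in the table, and their summed level ran from 4470 to 12600 CPM. Nefh was the largest part of this sum, at 3530 to 6950 CPM. Chat was at 63.5 to 353 CPM, Mnx1 at 8.82 to 56.7 CPM and Isl1 at 4.21 to 46.2 CPM. The captured RNA also held transcripts of glia and interneurons. In 2 of the 12 libraries, heterozygote replicate 1 and homozygote replicate 1, interneuron transcripts were almost missing. Their 5 inhibitory interneuron markers summed to 3.59 and 0.87 CPM, against 170 to 426 CPM elsewhere, with Gad2 at 0 in both and Slc6a5 and Gad1 at 0 in the homozygote. Their excitatory interneuron markers summed to 0.563 and 4.52 CPM against 160 to 323 CPM. Nearly all of this sum was Slc17a6, because Slc17a8 was at 0 in 8 of 12 libraries and at most 0.796 CPM. Their motor neuron markers summed to 12200 and 12600 CPM against 4470 to 8110 CPM elsewhere. Nefh was at 6830 and 6950 CPM there against 3530 to 5560 CPM. Of the 9 markers only Isl1, at 35.3 and 26.5 CPM, was within the range of the other libraries. A lower value of a subunit in bulk RNA can stand for fewer cells that make it or for less RNA per cell, and these cannot be told apart.

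The alpha subunits are close relatives, and how far short reads can separate them bears on the values below. Scn3a, Scn2a1, Scn1a and Scn9a lie in 1 cluster on mouse chromosome 2 (GRCm38, chr2:65457118-66634952, 1177.8 kb), whereas Scn8a lies alone on chromosome 15. In the coding sequences of GENCODE release M21, Scn2a1 was 82.7% identical to Scn1a and 83.6% identical to Scn3a, and Scn8a was 71.1% to 74.2% identical to the others. Of all windows of 50 coding bases, 11.3% in Scn2a1, 7.54% in Scn1a, 13.2% in Scn3a and 8.89% in Scn9a occurred unchanged in another alpha subunit of the set, against 0.101% in Scn8a. How the counting treated reads from such windows is not given in the sources used here, so how the counts are split among the chromosome 2 genes is uncertain. The beta subunits were far less alike, with 51.4% to 55.7% identity and no shared window of 50 bases. Scn2b and Scn4b are neighbours on chromosome 9, with 8.4 kb between them.

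Transcript levels spread over a wide range. To compare genes, CPM was divided by the kilobases of annotated exon of each gene. Scn4b, a beta subunit that is joined to the alpha subunit by a disulphide bond and is known for its part in resurgent sodium current, was highest in wild type, at 136 ± 17.8 CPM per kb (SD, n = 4). Scn1a, which encodes Nav1.1, followed at 36.5 ± 3.08 CPM per kb, and Scn8a, which encodes Nav1.6, the main channel of mature nodes, at 23.6 ± 1.37 CPM per kb. Each of these 3 genes was above the next in all 12 libraries, and their wild type ranges did not overlap.

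The other 5 were far lower. Scn9a, which encodes Nav1.7 and is best known from sensory and sympathetic neurons, had 3.70 ± 3.59 CPM per kb in wild type, and Scn2b, another disulphide-linked beta subunit, had 2.24 ± 0.822. Scn2a1, which encodes Nav1.2, the channel of unmyelinated and immature axons, had 1.25 ± 0.256 CPM per kb. Scn3a, which encodes Nav1.3 and is mainly an embryonic channel, had 0.510 ± 0.157, and Scn3b, a beta subunit that is not disulphide-linked, had 0.225 ± 0.205. In wild type the ranges of Scn9a and Scn2b overlapped, as did those of Scn2b and Scn2a1 and those of Scn3a and Scn3b, so these neighbours could not be ordered beyond their spread. By mean level the heterozygotes and homozygotes had the same order except that Scn2a1 came above Scn2b.

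**Figure D1:**
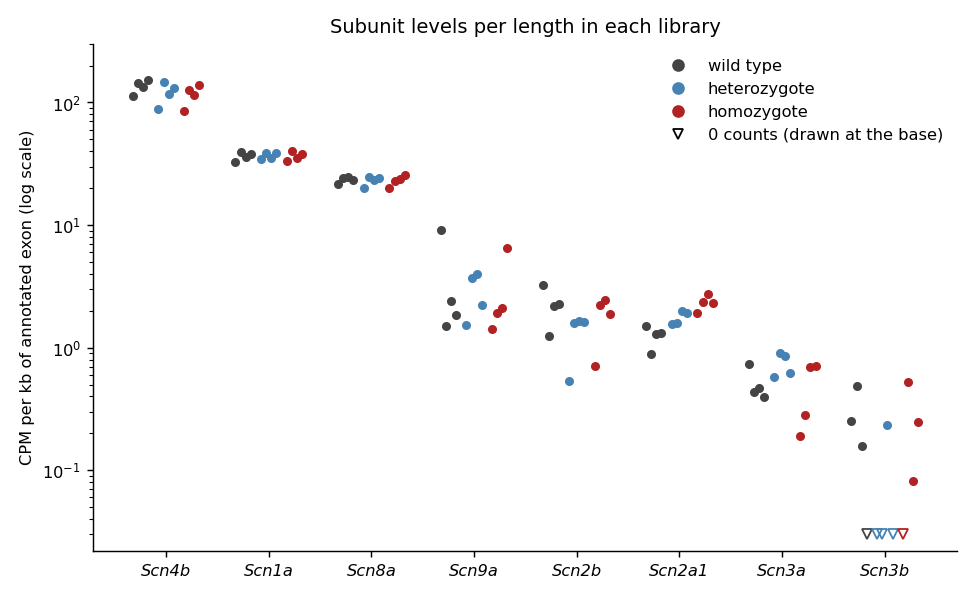
CPM per kb of annotated exon (log axis) for each subunit, with 1 point for each of the 12 libraries, coloured by genotype. Triangles at the base stand for the 5 libraries with 0 counts of Scn3b. Scn4b, Scn1a and Scn8a lie above the other 5 subunits in every library.

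Expressed as a share of the summed CPM per kb of the 5 alpha subunits, Scn1a and Scn8a together made up 91.7% ± 5.99 in wild type (SD, n = 4), and the heterozygotes and homozygotes had 91.8% ± 1.91 and 91.4% ± 3.10. Scn1a alone was 55.7% ± 4.41 in wild type and Scn8a 36.0% ± 2.20. The lowest combined share, 82.8%, was in wild type replicate 1, where Scn9a took 13.8%.

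No subunit passed the adjusted threshold between genotypes in edgeR. In homozygotes against wild type, 0 of 8 subunits had an adjusted p below 0.05, where 0.00612% of all 16338 genes did. An unadjusted p below 0.05 was reached by 1 of 8, Scn2a1, where 4.82% of all genes reached it. The same gene was the only subunit whose libraries did not overlap between these genotypes, against 3.41% of all genes. The median log2 difference over the 8 subunits was -0.10, against 0.00 over all genes, with 2 subunits above 0 and 6 below, where 49.4% of all genes were above 0.

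In heterozygotes against wild type, 0 of 8 subunits passed the adjusted threshold, as did 0% of all genes. Scn2a1 was again the 1 subunit with an unadjusted p below 0.05 (4.10% of all genes) and the 1 without overlap (3.24% of all genes). In homozygotes against heterozygotes, 0 of 8 passed (0% of all genes), Scn2a1 alone had an unadjusted p below 0.05 (2.97% of all genes), and all 8 overlapped (2.03% of all genes did not). In the slope per mutant allele, fitted over all 12 libraries, 0 of 8 passed (0.00612% of all genes) and Scn2a1 alone had an unadjusted p below 0.05 (4.67% of all genes). DESeq2 called Scn2a1 in 2 of these 4 comparisons, as given with its values below, and called no other subunit. These comparisons share libraries, so they are not independent of one another.

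**Figure D2:**
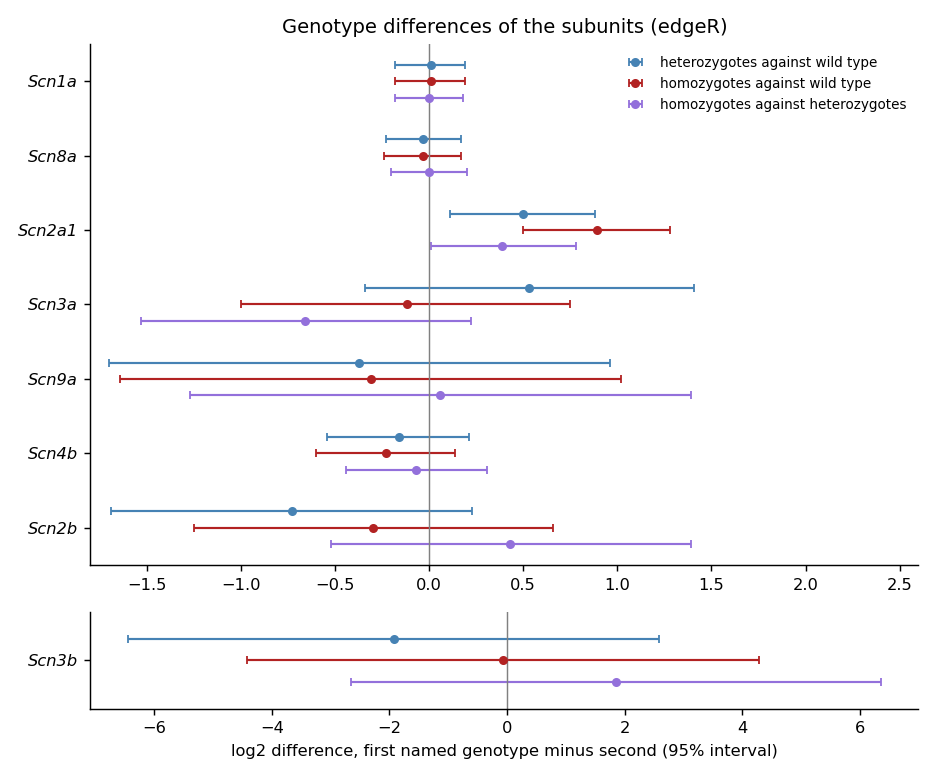
Log2 differences between genotypes for each subunit (edgeR), with 95% confidence intervals. Scn3b has its own panel with a wider axis. The intervals of Scn2a1 lie above 0 in all 3 comparisons, from 0.50 to 1.28 in homozygotes against wild type, while those of the other 7 subunits include 0.

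Scn2a1 was lowest in wild type and highest in homozygotes. Its level was 19.2, 11.4, 16.6 and 16.6 CPM in wild type replicates 1 to 4. In heterozygotes it was 19.8, 20.3, 25.3 and 24.6 CPM. In homozygotes it was 24.3, 29.8, 34.6 and 29.4 CPM. All 4 heterozygote and all 4 homozygote libraries were above every wild type library, though the lowest heterozygote exceeded the highest wild type library by little. Heterozygotes and homozygotes overlapped, because homozygote replicate 1 lay among the heterozygotes. Each value rested on at least 712 counts, so counting error alone was small beside the spread between libraries. Without molecular identifiers the number of molecules behind these counts is not known and may be smaller.

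The means (± SD, n = 4 each) were 15.9 ± 3.26 CPM for wild type, 22.5 ± 2.86 for heterozygotes and 29.5 ± 4.23 for homozygotes. By edgeR the log2 difference of homozygotes from wild type was 0.89 (SE 0.18, 95% interval 0.50 to 1.28), a 1.85-fold higher level. Its unadjusted p of 0.000296 was the third smallest of all 16338 genes, but the Benjamini-Hochberg adjusted p was 0.932. The difference therefore did not pass in edgeR, although DESeq2 gave an adjusted p of 0.00991 for the same log2 difference of 0.89, and over all alternatives tried the adjusted p ran from 0.00991 to 1.00.

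Heterozygotes differed from wild type by 0.50 (SE 0.18, interval 0.11 to 0.88; edgeR unadjusted p = 0.016, adjusted p = 0.999), and DESeq2 did not call this difference (adjusted p = 0.720). Homozygotes differed from heterozygotes by 0.39 (SE 0.18, interval 0.01 to 0.78; edgeR unadjusted p = 0.0464, adjusted p = 1.00). The slope was 0.44 per mutant allele (SE 0.09, interval 0.26 to 0.63; edgeR unadjusted p = 0.00017, adjusted p = 0.928), and DESeq2 gave a slope of 0.45 with an adjusted p of 0.0084.

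Scn2a1 kept its order of genotypes without the 2 libraries poor in interneuron markers. Heterozygote replicate 1 held 19.8 CPM and homozygote replicate 1 held 24.3 CPM, the lowest value of each genotype. Without both libraries the log2 differences were 0.98 for homozygotes against wild type (edgeR adjusted p = 0.556), 0.56 for heterozygotes against wild type (adjusted p = 0.947) and 0.42 for homozygotes against heterozygotes (adjusted p = 1.00). Leaving out any single library kept the difference of homozygotes from wild type between 0.76 and 1.00.

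Cell type markers also differed in mean between the genotypes. By rising allele number the motor neuron markers summed to 6000 ± 1700, 7400 ± 3240 and 7910 ± 3130 CPM (SD, n = 4 each), and 9 of 9 were higher in mean in homozygotes than in wild type. The inhibitory interneuron markers summed to 304 ± 125, 190 ± 132 and 176 ± 128 CPM, the excitatory ones to 269 ± 42.0, 202 ± 139 and 146 ± 101 CPM, and those of astrocytes to 1200 ± 244, 906 ± 237 and 897 ± 191 CPM. Oligodendrocyte markers did not order by allele number, at 1630 ± 815, 1080 ± 108 and 1490 ± 80.6 CPM. Nor did the means of oligodendrocyte precursors (1.96, 1.85 and 2.88 CPM), microglia (17.4, 19.8 and 16.4 CPM) and endothelium (18.6, 13.7 and 16.9 CPM). Without heterozygote replicate 1 and homozygote replicate 1 the motor neuron markers of heterozygotes and homozygotes summed to 5810 ± 653 and 6350 ± 314 CPM (n = 3 each), near the wild type mean. The inhibitory interneuron markers then summed to 253 ± 53.1 and 235 ± 64.0 CPM, the excitatory ones to 270 ± 41.6 and 193 ± 42.4 CPM and the astrocyte markers to 1020 ± 35.9 and 986 ± 82.2 CPM. The part of these markers in the order of Scn2a1 was not tested.

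Its share of the alpha subunits followed the same order. Scn2a1 made up 1.91% ± 0.404 of the summed alpha CPM per kb (± SD, n = 4) for wild type, 2.71% ± 0.319 for heterozygotes and 3.55% ± 0.461 for homozygotes. The wild type range of 1.34% to 2.29% lay below the heterozygote range of 2.30% to 3.05%, and the homozygote range of 3.16% to 4.21% lay above both. The highest wild type share, 2.29%, was in replicate 1, where Scn9a took 13.8% of the sum and so lowered the other shares. As a percentage of the CPM of Scn1a, its relative in the same cluster, Scn2a1 had means of 3.98, 5.50 and 7.23 by rising allele number. By this measure wild type and heterozygotes overlapped, at 2.58 to 5.27 and 4.74 to 6.48, and homozygotes ran from 6.52 to 8.78. Scn1a itself was level across genotypes, as the next values show, and whether any Scn2a1 counts came from shared windows was not tested.

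**Figure D3:**
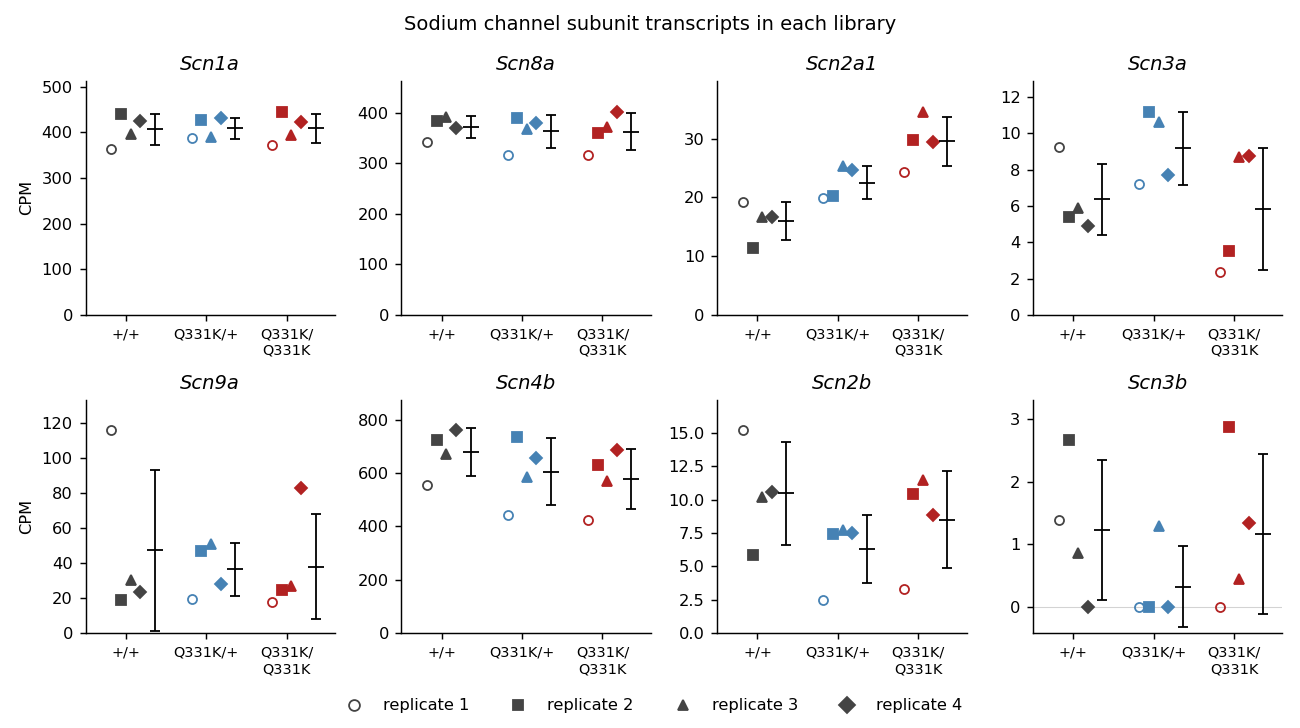
CPM of each subunit in each of the 12 libraries, by genotype, with linear axes and a symbol for each replicate number. The black bar beside each group is its mean with SD (n = 4). Scn2a1 is at 11.4 to 19.2 CPM in wild type and 24.3 to 34.6 CPM in homozygotes, whereas the genotypes of the other subunits overlap.

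Scn1a was nearly level. It measured 363, 441, 397 and 426 CPM in wild type replicates 1 to 4, 387, 428, 391 and 431 CPM in heterozygotes, and 372, 446, 394 and 424 CPM in homozygotes. The 3 genotypes covered the same range, with means of 407 ± 34.4, 409 ± 23.6 and 409 ± 32.6 CPM (SD, n = 4 each). The log2 difference of homozygotes from wild type was 0.01 (edgeR, interval -0.18 to 0.19, adjusted p = 1.00), which leaves room for a change of up to 1.14-fold upward.

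Scn8a behaved in the same way apart from the libraries named above. Wild type replicates 1 to 4 held 343, 384, 392 and 370 CPM, heterozygotes 316, 390, 368 and 381 CPM, and homozygotes 316, 360, 373 and 403 CPM. The lowest values were heterozygote replicate 1 and homozygote replicate 1, both at 316 CPM, against 343 to 403 CPM in the other 10 libraries. The log2 difference of homozygotes from wild type was -0.03 (edgeR, interval -0.24 to 0.17, adjusted p = 1.00), and it turned to 0.03 without both of these libraries or without homozygote replicate 1 alone. Within each genotype Scn1a and Scn8a had standard deviations of 0.11 and 0.13 in log2 CPM, smaller than those of all but 3.70% and 6.30% of the genes tested. Of the 500 genes closest to each in level, 26.8% and 37.6% varied less.

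Scn3a was low in all libraries and did not order by allele number. It measured 9.22, 5.41, 5.90 and 4.90 CPM in wild type replicates 1 to 4. In heterozygotes it was 7.21, 11.2, 10.6 and 7.72 CPM. In homozygotes it was 2.35, 3.53, 8.67 and 8.77 CPM. The homozygote libraries thus fell into a low and a high pair, and they overlapped both other genotypes. The highest mean was in heterozygotes, 9.20 ± 2.03 CPM, against 6.36 ± 1.95 for wild type and 5.83 ± 3.37 for homozygotes (SD, n = 4 each). By edgeR the log2 difference was 0.53 for heterozygotes against wild type (interval -0.34 to 1.41, adjusted p = 0.999) and -0.66 for homozygotes against heterozygotes (interval -1.53 to 0.22, adjusted p = 1.00). For homozygotes against wild type it was -0.12 (interval -1.0 to 0.75), and leaving out wild type replicate 1, homozygote replicate 1 or homozygote replicate 2 turned it to 0.12, 0.14 or 0.05.

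Scn9a varied most among the well-measured subunits, and single libraries decided its means. Wild type replicates 1 to 4 held 116, 19.0, 30.7 and 23.5 CPM. Heterozygotes held 19.4, 47.2, 51.2 and 28.4 CPM. Homozygotes held 18.1, 24.5, 26.8 and 82.9 CPM. Wild type replicate 1 and homozygote replicate 4 stood far above the rest of their genotype. The count behind each value was at least 1189, so counting error alone was small beside the spread, though here too the number of molecules is not known. Its standard deviation within genotypes, 0.95 in log2 CPM, exceeded that of 99.2% of the 500 genes closest in level. The log2 difference from wild type was -0.31 in homozygotes (edgeR, interval -1.64 to 1.02, adjusted p = 0.999) and -0.37 in heterozygotes (interval -1.70 to 0.96, adjusted p = 0.999). Without wild type replicate 1 these became 0.65 and 0.58, and without homozygote replicate 4 the difference of homozygotes from wild type was -1.04.

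Scn9a also overlaps a gene on the opposite strand, Gm13629, annotated as antisense. Over the 12 libraries Gm13629 held 130% of the counts of Scn9a, and the library kits named in the labels do not mark strand, so reads from exon bases shared by both cannot be assigned to either. The shared bases were 1.41% of the annotated exons of Scn9a and 15.7% of those of Gm13629. Gm13629 measured 33.0, 61.3, 67.6 and 66.3 CPM in wild type replicates 1 to 4. It was at 24.7, 52.8, 59.6 and 54.7 CPM in the heterozygotes and at 37.3, 61.0, 68.6 and 62.9 CPM in homozygotes. In wild type replicate 1, where Scn9a was highest at 116 CPM, Gm13629 was at 33.0 CPM, and only heterozygote replicate 1 was lower. The replicate 1 libraries of all 3 genotypes had the lowest Gm13629 values. By edgeR Gm13629 differed between homozygotes and wild type by 0.01 (log2, interval -0.63 to 0.64, adjusted p = 1.00).

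**Figure D4:**
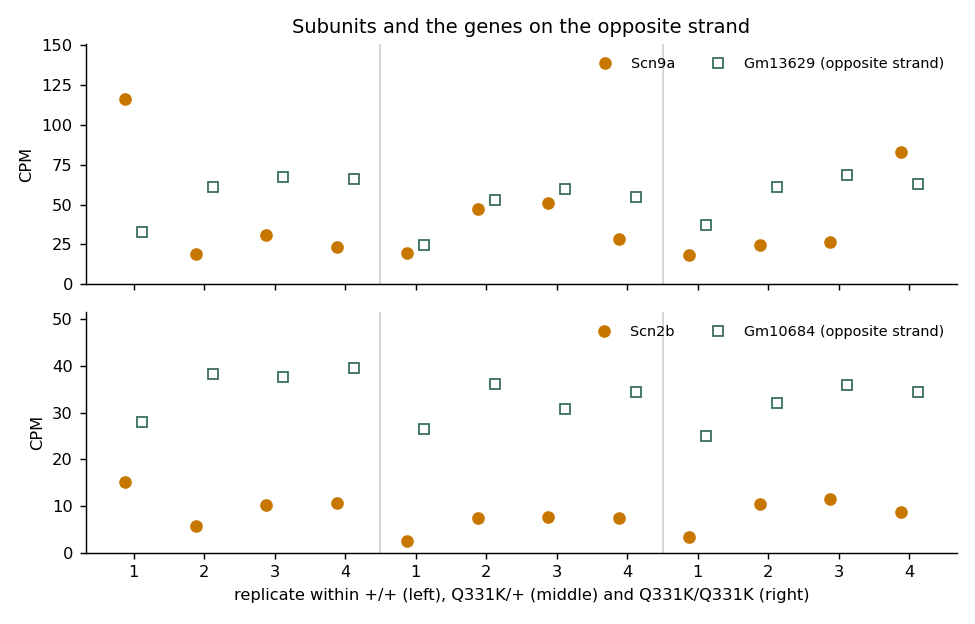
CPM in each library of Scn9a with Gm13629 (top) and of Scn2b with Gm10684 (bottom), each pair being genes on opposite strands. Scn9a is highest in wild type replicate 1 (116 CPM) and homozygote replicate 4 (82.9 CPM), while Gm13629 in those libraries is at 33.0 and 62.9 CPM.

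Scn4b, the most abundant of the 8 per kb, was also the highest in CPM. Wild type replicates 1 to 4 held 557, 722, 673 and 761 CPM. Heterozygotes held 442, 736, 585 and 657 CPM, and homozygotes 425, 630, 571 and 686 CPM. The genotypes overlapped, and the lowest values were again heterozygote replicate 1 and homozygote replicate 1, below the 557 to 761 CPM of the other 10 libraries. The means were 678 ± 88.6, 605 ± 125 and 578 ± 112 CPM (SD, n = 4 each). By edgeR the log2 difference of homozygotes from wild type was -0.23 (interval -0.60 to 0.14, unadjusted p = 0.203, adjusted p = 0.986), and without both of those libraries it was -0.11 (adjusted p = 0.999). In heterozygotes against wild type it was -0.16, and -0.04 without them.

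Scn2b showed the same 2 libraries low, and more so. It measured 15.2, 5.82, 10.2 and 10.6 CPM in wild type replicates 1 to 4. In heterozygotes it was 2.48, 7.43, 7.75 and 7.52 CPM. In homozygotes it was 3.28, 10.4, 11.5 and 8.84 CPM. The other 10 libraries ran from 5.82 to 15.2 CPM, so 2.48 and 3.28 CPM lay below all of them. The means were 10.4 ± 3.83, 6.29 ± 2.55 and 8.50 ± 3.64 CPM (SD, n = 4 each). Heterozygotes differed from wild type by -0.73 (edgeR, log2, interval -1.69 to 0.23, unadjusted p = 0.123, adjusted p = 0.999), and by -0.46 without both libraries or without heterozygote replicate 1 alone. Homozygotes differed from wild type by -0.30 (interval -1.25 to 0.66, adjusted p = 0.999), by -0.03 without both libraries, by -0.02 without homozygote replicate 1 alone and by -0.05 without wild type replicate 1 alone.

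Scn2b lies within the span of Gm10684, a long non-coding RNA gene on the opposite strand. They share no annotated exon base, and Gm10684 held 393% of the counts of Scn2b. Gm10684 measured 28.0, 38.3, 37.7 and 39.6 CPM for wild type, 26.5, 36.2, 30.7 and 34.4 CPM in heterozygotes and 25.1, 32.0, 36.0 and 34.5 CPM in homozygotes, by replicate 1 to 4. Its lowest libraries were heterozygote replicate 1 and homozygote replicate 1, as for Scn2b, but in wild type replicate 1, where Scn2b was highest at 15.2 CPM, Gm10684 was at its wild type minimum of 28.0 CPM.

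**Figure D5:**
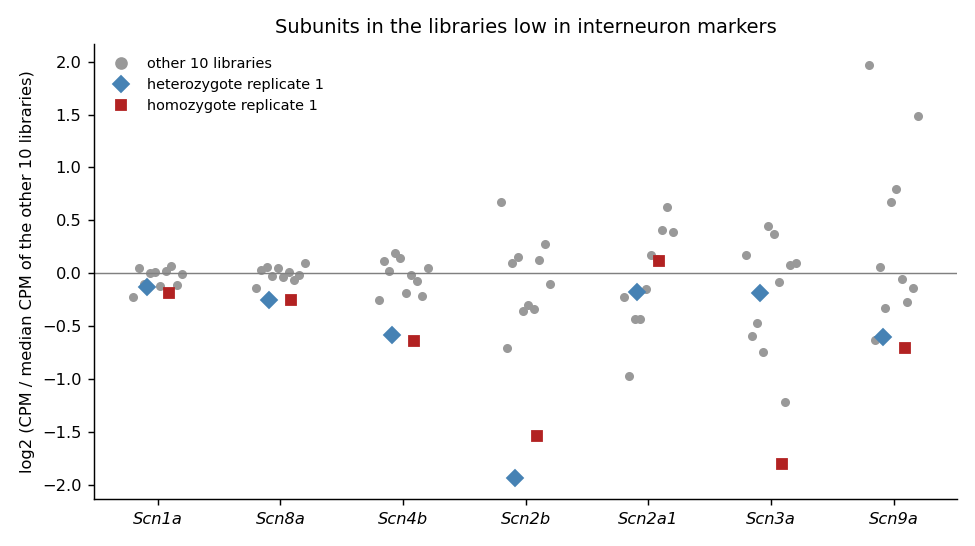
Log2 ratio of CPM in each library to the median of the 10 libraries with interneuron markers, for 7 subunits. Grey points are those 10 libraries, and the coloured symbols are heterozygote replicate 1 and homozygote replicate 1. Both coloured symbols lie below all grey points for Scn8a, Scn4b and Scn2b but within them for Scn1a and Scn2a1.

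Among the subunits, Scn8a, Scn4b and Scn2b were thus below all other libraries in both libraries with low interneuron and high motor neuron markers, and Scn1a and Scn2a1 were within the range of the other 10. For Scn3a and Scn9a only homozygote replicate 1 was below the other 10, at 2.35 CPM against 3.53 to 11.2 and at 18.1 CPM against 19.0 to 116. The sum of 6 astrocyte markers was also lower in these libraries, at 554 and 628 CPM against 898 to 1520 CPM. Most of that sum was Aldoc, at 467 and 511 CPM against 791 to 1280 CPM. Gfap was below the other 10 in the heterozygote only, at 11.5 CPM against 15.8 to 79.1 CPM. Aqp4, Slc1a2, Slc1a3 and Gja1 were within the range of the other 10 in both libraries. Both libraries also bear replicate number 1. Wild type replicate 1, which was not poor in interneuron markers, was the lowest wild type library for Scn1a, Scn8a and Scn4b. It held 363, 343 and 557 CPM of them, but it was the highest for Scn2b, at 15.2 CPM. The part of the marker differences or of the replicate number in the subunit values was not tested.

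Scn3b had the lowest mean CPM per kb of the 8 subunits. It had 0 counts in 5 of 12 libraries, which allows up to 0.0356 to 0.0435 CPM there, counting error only. Wild type replicates 1 to 4 held 1.39, 2.67, 0.862 and 0 CPM, heterozygotes 0, 0, 1.29 and 0 CPM, and homozygotes 0, 2.88, 0.447 and 1.34 CPM. The genotypes overlapped. The largest count in any library was 200, and without molecular identifiers such counts may come from few molecules. The log2 difference of homozygotes from wild type was -0.07 with an interval from -4.43 to 4.28 (edgeR, adjusted p = 1.00), so that even large differences were not detectable beside the spread between libraries, an SD of 2.89 in log2 CPM within genotypes. For heterozygotes against wild type it was -1.93 (interval -6.45 to 2.59, adjusted p = 0.999), which 1 library decided: without heterozygote replicate 3 the remaining heterozygotes were all at 0 and the fitted value was -9.46, which is no bound.

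The subunits differed in their pattern over the 12 libraries. With each gene centred on its mean, the root mean square difference in log2 CPM was 0.09 between Scn1a and Scn8a, 0.17 between Scn8a and Scn4b, and 0.20 between Scn1a and Scn4b. The next closest pair was Scn2a1 and Scn8a at 0.44. These distances are smallest between genes that vary little, so they describe flatness as much as shared pattern.

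By the same measure, the genes of at least 10 CPM closest to Scn2a1 were Cwc25, a splicing factor, at 0.21, Ints9, a subunit of the Integrator complex, at 0.25 and Ranbp10 at 0.26, where the median of 9185 candidates was 0.49. Closest to Scn1a were Nop56 at 0.05, Fbxw5 at 0.06 and Mrps17 at 0.07, and closest to Scn8a were Slc25a3, Ublcp1 and Mapt at 0.06 each. For Scn4b they were Sparcl1 at 0.07, 2900011O08Rik at 0.08 and Gm13706 at 0.09. The remaining subunits had looser matches, with Gpr83 at 0.28, 4430402I18Rik at 0.37 and Dlg3 at 0.39 for Scn3a, Lix1 and Ly6e at 0.38 and Scg2 at 0.41 for Scn9a, and Chd5 at 0.28, Adcy8 at 0.32 and Eml3 at 0.34 for Scn2b. For Scn3b even the closest, Neto2, Egr1 and 2010011I20Rik, were 2.36 to 2.38 away.

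Further genes of sodium handling were followed in 5 lists, in each of which 0 genes passed the adjusted threshold in any of the 4 comparisons, whether by edgeR, DESeq2 or limma-voom. Of 7 other family genes, 3 were tested. Nalcn, the sodium leak channel, was at 43.3 ± 4.07 CPM in wild type and 45.4 ± 10.4 in homozygotes, and Scn7a at 0.642 ± 0.454 and 1.35 ± 1.34 CPM. Scn10a and Scn11a, channels of sensory neurons, were nearly absent: Scn10a had counts in 1 library and Scn11a in 4 of 12. Scn9a, also known from sensory neurons, was at 18.1 to 116 CPM. Scn4a, the skeletal muscle channel, was listed at 0 in each of its entries. The median log2 difference of the 3 tested genes in homozygotes was 0.07, and 0 of 3 had an unadjusted p below 0.05 in any comparison.

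The scaffold of the axon initial segment and node, which anchors the channels, had 15 genes tested of 17. In homozygotes against wild type 5 were above 0 and 10 below, with a median of -0.08 against 0.00 over all genes. An unadjusted p below 0.05 was found for 1 of 15, where 4.82% of all genes had one. This was Kcna2, a potassium channel of the juxtaparanode, whose means by rising allele number were 160 ± 22.6, 134 ± 12.6 and 131 ± 18.3 CPM (edgeR log2 difference -0.29, SE 0.13, adjusted p = 0.986). Tnr, an extracellular matrix protein of nodes, was at 6.57 ± 3.25 CPM in wild type and 11.7 ± 1.38 in homozygotes (0.83, SE 0.53). Heterozygote replicate 1 and homozygote replicate 1 held the most Tnr, 14.4 and 13.1 CPM against 2.37 to 12.1 CPM elsewhere. Kcna1 was at 1100 ± 53.2 and 1040 ± 29.5 CPM in wild type and homozygotes (-0.09, SE 0.06). In heterozygotes against wild type and in homozygotes against heterozygotes, 0 of 15 had an unadjusted p below 0.05.

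Of 19 intracellular partners of sodium channels, all tested, 10 were above 0 and 9 below in homozygotes against wild type, with a median of 0.01. Those with an unadjusted p below 0.05 were 2 of 19 (4.82% of all genes), Fgf13 and Calm3, both lower in mean in each mutant genotype. Fgf13, a fibroblast growth factor homologous factor that binds the channel's C-terminal tail, had means of 39.7 ± 3.74, 28.6 ± 3.75 and 26.4 ± 7.36 CPM by rising allele number (edgeR log2 difference -0.59 in homozygotes, SE 0.19, unadjusted p = 0.0094, adjusted p = 0.986). It was at 16.6 CPM in homozygote replicate 1, below the 24.7 to 44.7 CPM of the 10 libraries with interneuron markers. Calm3, which encodes calmodulin, was at 822 ± 41.5, 702 ± 47.3 and 691 ± 69.3 CPM (-0.25, SE 0.08, unadjusted p = 0.00984, adjusted p = 0.986). Gnao1 was at 124 ± 17.5 CPM in wild type and 146 ± 20.3 in homozygotes, and S100a10, which helps carry channels to the surface, at 243 ± 83.1 and 363 ± 147 CPM. In S100a10 the 2 libraries poor in interneuron markers were the highest, at 558 and 580 CPM against 163 to 355 CPM. Fgf13 and Calm3 also had an unadjusted p below 0.05 in heterozygotes against wild type (0.0293 and 0.0169, with 4.10% of all genes below 0.05) and in the slope (0.00771 and 0.0101, with 4.67%). In homozygotes against heterozygotes 0 of 19 had one, where 2.97% of all genes did. Their adjusted p in edgeR was 0.999 in heterozygotes and 0.978 in the slope.

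Regulators of sodium channel transcripts, among them splicing factors and the repressor Rest, had 15 genes tested of 16. In homozygotes against wild type 12 were above 0 and 3 below, with a median of 0.04, where 49.4% of all genes were above 0, and in heterozygotes 6 were above and 9 below (49.7% of all genes above). An unadjusted p below 0.05 was reached by 0 of 15 in every comparison. Rbfox3, a neuronal splicing factor, was at 161 ± 10.5 CPM in wild type and 187 ± 29.2 in homozygotes, with 204 and 226 CPM in the interneuron-poor libraries against 147 to 186 elsewhere. Luc7l3 was at 84.6 ± 17.9 and 100 ± 12.4 CPM, Rest at 3.82 ± 1.82 and 5.83 ± 0.311 CPM, and Pum2, a repressor of sodium channel translation, at 12.8 ± 1.83 and 10.8 ± 3.47 CPM. None passed the adjusted threshold.

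Sodium extrusion genes, the pumps and exchangers that restore the gradient, had 12 tested of 13. In homozygotes against wild type 5 were above 0 and 7 below, with a median of -0.18 against 0.00 over all genes. By edgeR 1 of 12, which is not reported here, had an unadjusted p below 0.05 (4.82% of all genes). In the slope 1 of 12 had one (4.67% of all genes). The pump subunit Atp1b1 was at 2560 ± 226 CPM in wild type and 2300 ± 166 in homozygotes. Fxyd7, a pump modulator, was at 171 ± 64.9 and 319 ± 169 CPM. In both genes the interneuron-poor libraries lay outside the range of the other 10: Atp1b1 was at 2020 and 2100 CPM there against 2220 to 2760, and Fxyd7 at 598 and 563 against 108 to 284. Their part in the differences between genotypes was not tested. In heterozygotes against wild type 2 of 12 had an unadjusted p below 0.05 (4.10% of all genes), Slc12a2, a sodium, potassium and chloride importer, and the pump subunit Atp1b3, both named here after their values were seen. By rising allele number Slc12a2 was at 29.9 ± 2.40, 20.4 ± 3.60 and 25.3 ± 2.62 CPM (edgeR log2 difference -0.55 in heterozygotes, SE 0.15, unadjusted p = 0.00313, adjusted p = 0.999). Atp1b3 was at 67.9 ± 5.21, 57.1 ± 5.36 and 68.8 ± 2.13 CPM in the same order (-0.25 in heterozygotes, SE 0.09, adjusted p = 0.999) and was also the 1 gene of 12 in homozygotes against heterozygotes (0.27, with 2.97% of all genes below 0.05).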

How the data were processed

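Libraries of laser-captured motor neurons were made with a template-switching kit for low input and a transposase kit, per the labels' protocols; neither marks strand or molecules, so floors cover counting error only. The authors deposited raw gene counts. Per the submitters' processing notes, the tools used were Trim Galore 0.4.3 and HISAT2 2.0.5, on the GRCm38 assembly. Which program counted the reads, by which annotation and with which strand setting, is not given in the sources used here. Table coordinates, gene lengths and coding sequences were compared with GENCODE release M21 (GRCm38).

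From the counts, edgeR 4.0.16 in R 4.3.3 kept genes by filterByExpr, scaled by TMM (factors 0.94 to 1.03) and fitted a quasi-likelihood model over 12 libraries with genotype as group, and another with allele number as a slope. Tests were two-sided with Benjamini-Hochberg adjustment over all 16338 genes and a threshold of 0.05. Log2 CPM used a prior count of 2. Alternatives were DESeq2 1.42.0, limma-voom (limma 3.58.1), other size factors, other filters, a replicate block, only the libraries compared, and leaving out libraries singly or both that stand apart.

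All 8 subunits are named. Of each list, up to 4 members with the smallest p in homozygotes against wild type are named, and of genes with like pattern the 3 closest. The members and lists were chosen with earlier results of these data known. Sptbn4, Sptan1, Scnm1 and Slc18a3 were not found under those symbols, and Scn4a had 2 entries. Some members of the lists and some sequences are not reported here.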

Additional observations from a re-analysis of the deposited data

Results flagged for a closer look

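A library far from the other 3 of its genotype was found in 4 of 24 groups (8 subunits in 3 genotypes), judged by whether its gap to the nearest library, as a share of the group's whole range, was above the critical value of Dixon's test at 95%. A rate of about 1 in 20 groups by chance holds only for independent normal values. Here the values were untransformed CPM of genes measured in the same libraries, so 4 of 24 is no measure of an excess. For Scn9a in wild type the share was 0.879, with replicate 1 at 116 CPM against 19.0 to 30.7 CPM. For Scn9a in homozygotes it was 0.866, with replicate 4 at 82.9 CPM against 18.1 to 26.8 CPM. For Scn2b in heterozygotes it was 0.940, with replicate 1 at 2.48 CPM against 7.43 to 7.75 CPM. For Scn3b in heterozygotes it was 1.00, because replicate 3 held 1.29 CPM and the others 0.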

How the results depend on the processing

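Scn2a1 kept its direction in all 4 comparisons under every alternative run, and crossed the adjusted threshold only with DESeq2, which called 1 subunit in homozygotes against wild type and 1 in the slope. The order of levels in wild type was the same with the longest transcript as length and without each wild type library. Over all genes, edgeR called 1 in homozygotes against wild type, 0 in both other pairs and 1 in the slope. DESeq2 called 13 in homozygotes and 13 in heterozygotes against wild type, 8 between the mutant genotypes and 11 in the slope. In homozygotes against wild type, 0 were called with no filter, with only the 8 libraries compared, without both libraries that stand apart and without any single library (0 to 0). In the slope, 0 were called without both libraries, and 0 to 3 without single libraries.

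Signs turned only for subunits whose intervals include 0. Without both libraries that stand apart, homozygotes against wild type gave Scn3a 0.14, Scn8a 0.03 and Scn3b 0.35, heterozygotes against wild type gave Scn8a 0.03, homozygotes against heterozygotes gave Scn1a 0.02, and the slope gave Scn3a 0.10, Scn8a 0.02 and Scn3b 0.13. With limma-voom, homozygotes against wild type gave Scn9a 0.19 and Scn3b 1.04, heterozygotes against wild type gave Scn9a 0.39, homozygotes against heterozygotes gave Scn1a 0.01 and Scn9a -0.20, and the slope gave Scn3a 0.01, Scn9a 0.09 and Scn3b 0.39. With no filter, homozygotes against heterozygotes gave Scn1a 0.000247, and with a stricter filter Scn1a 0.00491 and Scn8a 0.0032. The causes were not tested. Replicates left out singly gave, for homozygotes against wild type, Scn1a -0.04 to 0.06, Scn3a -0.40 to 0.14, Scn8a -0.09 to 0.03, Scn9a -1.04 to 0.65 and Scn3b -1.04 to 0.64. For heterozygotes against wild type they gave Scn1a -0.04 to 0.05, Scn8a -0.07 to 0.03 and Scn9a -0.63 to 0.58. For homozygotes against heterozygotes they gave Scn1a -0.04 to 0.05, Scn8a -0.06 to 0.06, Scn9a -0.66 to 0.30 and Scn4b -0.19 to 0.06, and for the slope Scn1a -0.02 to 0.03, Scn3a -0.15 to 0.10, Scn8a -0.04 to 0.01, Scn9a -0.51 to 0.31 and Scn3b -0.57 to 0.37.

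Libraries with the same replicate number were not taken as pairs: their deviations correlated from -0.0528 to 0.454, over 0.1 in 3 of 12 pairs, all between replicate 1 libraries, and 4 of 12 libraries correlated best with their own number. With the replicate number as a block, edgeR called 4 genes in the slope and 0 subunits in each comparison. Genes with an unadjusted p below 0.05 in homozygotes against wild type went from 787 to 1431, and Scn4b there had -0.24 with an unadjusted p of 0.00501 (adjusted p = 0.367) in place of 0.203. Under the block Scn3b turned to 0.07 in homozygotes against wild type, and Scn9a to -0.10 in homozygotes against heterozygotes. Scn3b had 0 counts in 5 of 12 libraries, among them the deepest.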
